A study of Mus musculus with 16 samples.

Results

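The Wnt ligands, Frizzled receptors and secreted Wnt inhibitors of mouse muscle were followed after denervation (DEN). They are the 37 genes, of 55487 in the count table, whose symbols consist of Wnt, Fzd, Sfrp or Dkk followed by a number and, where present, the letter a or b. These are 19 Wnt ligands, 10 Frizzled receptors, 4 secreted Frizzled-related proteins and 4 Dickkopf proteins. All 37 identifiers carried the same symbol in the GENCODE annotation of GRCm38. A total of 36 members had at least 1 count, and 27 passed the filter on low counts over the 16 libraries (11 Wnt ligands, 10 Frizzled receptors, 4 Sfrp genes and 2 Dkk genes). The 10 that did not pass were Wnt1, Wnt3, Wnt3a, Wnt7a, Wnt7b, Wnt8a, Wnt8b, Wnt9b, Dkk1 and Dkk4, and Wnt3a had no count in any library.

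RNA was sequenced from male C57BL/6J mice 21 days after a piece of the sciatic nerve was removed on 1 side (DEN) or after sham surgery, in which the nerve was exposed and left intact. The 4 groups were isolated fibers of the extensor digitorum longus (EDL) after DEN, EDL fibers after sham surgery, whole tibialis anterior (TA) muscle after DEN, and whole TA after sham surgery, with 4 libraries each. Fibers were picked by hand after collagenase digestion, a step that serves to remove cells outside the basal lamina, whereas the whole muscle keeps vessels, nerve and connective tissue. Markers of such cells were still read in the fiber libraries. Their summed levels lay wholly above whole muscle for Schwann cells after sham surgery and for tenocytes after DEN. Those of endothelial, smooth muscle, macrophage and fibro-adipogenic cells overlapped between the preparations. The muscle and the preparation differ together, so their parts in any difference between fibers and whole muscle cannot be told apart, and it was not stated whether EDL and TA came from the same mice.

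Wnt ligands are secreted lipid-modified glycoproteins that bind Frizzled receptors on nearby cells. With the coreceptors Lrp5 and Lrp6 they stabilise beta-catenin, and with Ror, Ryk and other receptors they act on cell polarity and calcium without it. Secreted Frizzled-related proteins hold a Frizzled-like domain and bind Wnt ligands outside the cell, and Dickkopf proteins act at Lrp5 and Lrp6. In adult muscle, Wnt signalling is known for its roles in stem cells, in the motor endplate and in the connective tissue cells between the fibers.

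Libraries held 47570214 to 62297405 counts. Levels per library are given as normalised CPM, which are counts scaled to a common library size after TMM (trimmed mean of M values) scaling, and levels are set between genes only as RPKM, the authors' unit that divides by library size and gene length. A gene was called when its adjusted p was below 0.05 in edgeR's quasi-likelihood test with Benjamini-Hochberg adjustment over all genes tested. TMM scaling sets the change of the typical gene near 0, and with total counts alone the median log2 fold change of all genes moved to 0.49 in fibers and 0.45 in whole muscle, so each change below is relative to the typical gene. The labels name no cage, day or batch, and p-values measure the spread between these libraries.

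Per gene length, Frizzled receptors were among the first 3 members in every group, and Wnt9a was the only ligand among them, in DEN whole muscle. In DEN fibers the first in order was Fzd4 with 20.2 ± 2.04 RPKM (SD, n = 4 for each RPKM value), followed by Fzd7 with 13.8 ± 2.15 RPKM, and the libraries of this pair did not overlap. Fzd9 came next with 9.89 ± 1.27 RPKM and overlapped with Fzd7. In sham fibers Dkk3 (21.4 ± 4.81 RPKM), Fzd7 (20.7 ± 1.33 RPKM) and Fzd4 (18.1 ± 2.17 RPKM) led, and each overlapped with its neighbour in that order. In DEN whole muscle the order began with Wnt9a (9.25 ± 1.19 RPKM), Fzd4 (8.73 ± 0.536 RPKM) and Fzd9 (8.20 ± 0.783 RPKM), again with overlap from each to the next. Sham whole muscle was led by Fzd4 with 11.2 ± 1.31 RPKM, clear of Fzd7 with 8.47 ± 0.716 RPKM. The highest ligand was Wnt9a in DEN fibers and in both whole muscle groups and Wnt4 in sham fibers. In sham whole muscle Wnt9a (5.24 ± 0.152 RPKM) overlapped with Wnt4 (5.06 ± 0.488 RPKM).

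**Figure D1:**
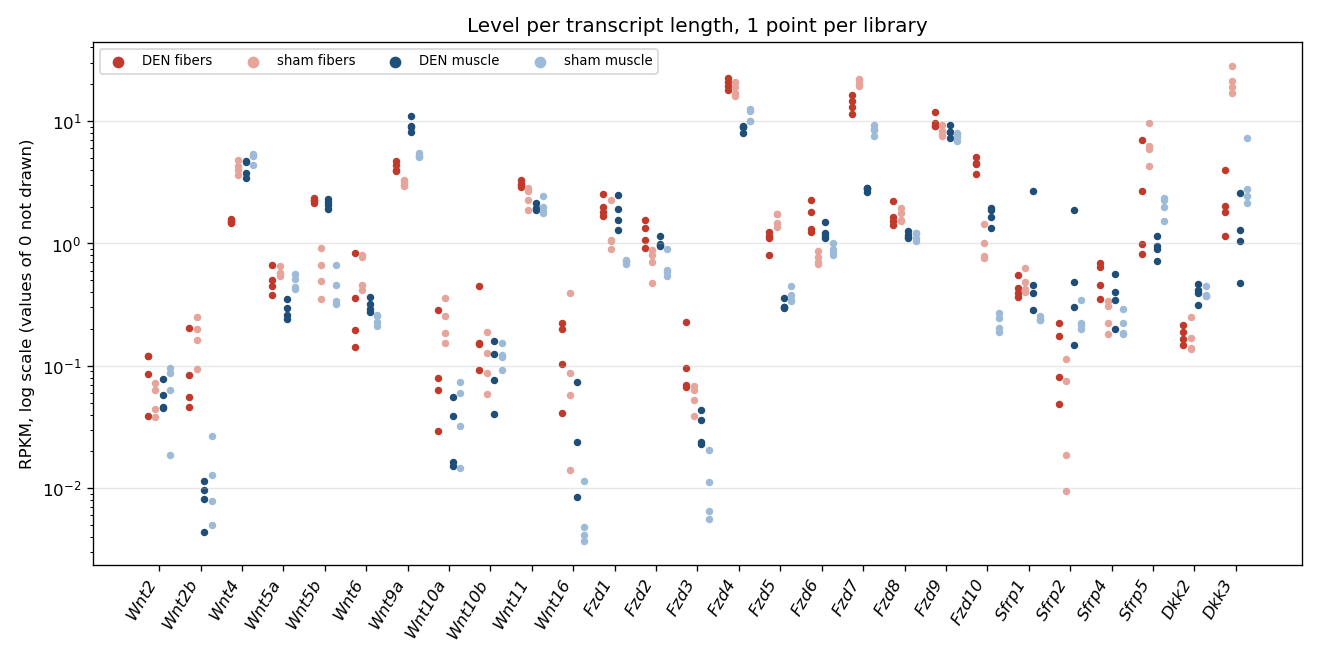
RPKM on a log axis for the 27 members that passed the filter, with 1 point per library and 1 colour per group. Fzd4, Fzd7 and Fzd9 lie above most ligands in every group, and Dkk3 is highest in sham fibers.

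Summed over the 10 Frizzled receptors, the level was 56.1 ± 4.95 RPKM in DEN fibers and 54.2 ± 2.73 RPKM in sham fibers (SD, n = 4 each). In whole muscle the same sum was 27.0 ± 1.29 RPKM after DEN and 31.2 ± 1.43 RPKM after sham surgery. The 19 ligands summed to 12.7 ± 0.757 RPKM in DEN fibers and 12.3 ± 1.46 RPKM in sham fibers, and to 18.4 ± 1.89 RPKM in DEN whole muscle and 13.8 ± 0.211 RPKM in sham whole muscle. These sums are not TMM scaled and are given without a test. A group mean of at least 1 RPM (the authors' unit that divides counts by library size alone) was reached by 22 members.

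The first question was which members DEN changed in fibers. Of 25 members tested, 3 were higher and 10 lower in DEN fibers. Over all 16724 genes tested, 27.1% were higher and 27.0% lower, against 12% and 40% of the members. The median log2 fold change was -0.39 over the members and 0.01 over all genes tested. Wnt5b, Fzd6 and Fzd10 were higher, and Wnt2b, Wnt4, Wnt5a, Fzd4, Fzd5, Fzd7, Fzd8, Sfrp1, Sfrp5 and Dkk3 were lower, of which Fzd4 and Fzd8 changed sign with total counts. Under total counts the split was 9 higher and 4 lower for the members, and 9950 higher and 1494 lower over all genes, against 4532 and 4515 with TMM scaling.

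In whole muscle 23 members were tested, of which 5 were higher and 11 lower after DEN. The shares of all 16379 genes tested were 34.0% higher and 32.2% lower, against 21.7% and 47.8% of the members. The median log2 fold change was -0.30 over the members and 0.02 over all genes tested. Wnt5b, Wnt9a, Fzd1, Fzd3 and Fzd10 were higher, and Wnt4, Wnt5a, Wnt11, Fzd4, Fzd5, Fzd7, Fzd8, Fzd9, Sfrp5, Dkk2 and Dkk3 were lower, of which Fzd8, Fzd9 and Dkk2 changed sign with total counts. Under total counts the split was 10 higher and 6 lower for the members, and 9983 higher and 2273 lower over all genes, against 5572 and 5273 with TMM scaling. The comparisons of fibers and of whole muscle share no library.

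**Figure D2:**
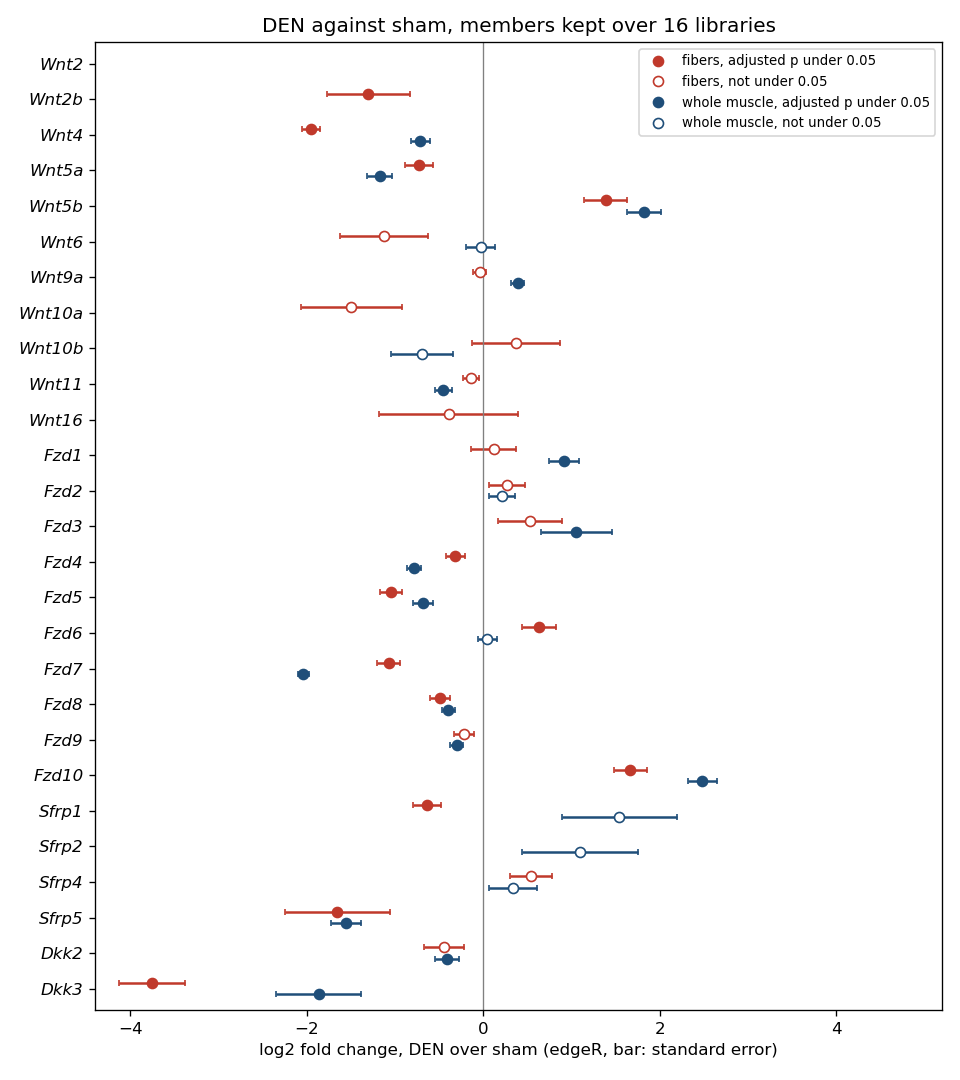
Log2 fold change of DEN over sham with its standard error for each of the 27 members, in fibers and in whole muscle; filled points have an edgeR adjusted p below 0.05, and a member without a point was not tested in that preparation. Fzd10 and Wnt5b lie furthest to the right and Dkk3 in fibers furthest to the left.

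The upstream sequences of 4 members called in both preparations are shown so that the region before each start can be read beside its change. They come from the RefSeq promoter table of GRCm38.p6, which held 25 of the 37 members, and run up to 250 bases before the annotated start, left out where they would enter the GENCODE transcript. Capitals mark an E-box (CANNTG, either strand), the site of basic helix-loop-helix factors such as MyoD and myogenin, or the core of a TCF site (CTTTGA or CTTTGT, either strand), through which beta-catenin acts. An E-box stood in 66.2% of all 32851 promoters of this length and the TCF core in 27.6%, and 16 and 7 of the 25 members held them. A member counted when any of its promoters held the motif, whereas the shares are per promoter, so these values are not on the same footing.
Wnt4, lower after DEN (chr4:137277385-137277488, plus strand, 104 bases): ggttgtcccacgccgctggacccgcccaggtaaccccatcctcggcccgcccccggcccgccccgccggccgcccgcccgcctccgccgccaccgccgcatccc
Wnt5b, higher after DEN (chr6:119544348-119544597, minus strand, the outermost of 3 RefSeq starts): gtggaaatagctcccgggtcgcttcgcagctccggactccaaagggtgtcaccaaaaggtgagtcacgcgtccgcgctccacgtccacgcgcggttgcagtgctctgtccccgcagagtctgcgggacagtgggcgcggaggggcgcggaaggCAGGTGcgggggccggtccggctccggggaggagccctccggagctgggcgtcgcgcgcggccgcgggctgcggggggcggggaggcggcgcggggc
Fzd7, lower after DEN (chr1:59481897-59482146, plus strand): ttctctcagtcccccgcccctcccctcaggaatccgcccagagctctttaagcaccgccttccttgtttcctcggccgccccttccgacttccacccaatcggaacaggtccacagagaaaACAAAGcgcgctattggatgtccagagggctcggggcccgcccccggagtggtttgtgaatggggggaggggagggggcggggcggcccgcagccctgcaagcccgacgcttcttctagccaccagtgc
Sfrp5, lower after DEN (chr19:42202253-42202502, minus strand): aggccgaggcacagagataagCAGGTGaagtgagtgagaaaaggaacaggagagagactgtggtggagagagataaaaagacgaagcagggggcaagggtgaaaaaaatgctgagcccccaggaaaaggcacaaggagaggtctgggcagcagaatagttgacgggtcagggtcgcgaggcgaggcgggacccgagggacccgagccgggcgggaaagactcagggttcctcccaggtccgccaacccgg
Wnt5b and Sfrp5 each held 1 E-box, with the same letters, and changed in opposite directions. The stretch before Fzd7 held 1 TCF core, and the shorter one before Wnt4 held neither motif. Bases G and C made up 83.7% of the stretch for Wnt4, 75.2% for Wnt5b, 65.2% for Fzd7 and 59.6% for Sfrp5.

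Among the ligands, Wnt4 had the most negative fold change of the 10 ligands tested in fibers. Wnt4 is known from kidney and reproductive tract development, and the authors cite fiber-secreted Wnt4 as critical for muscle stem cell quiescence. Wnt4 (ENSMUSG00000036856, chromosome 4, 137277489 to 137299726, plus strand) had 5.56, 5.25, 4.90 and 5.46 normalised CPM in DEN fibers, against 21.1, 23.0, 17.0 and 21.2 in sham fibers. Every DEN fiber library lay below every sham fiber library, and Wnt4 was 3.87-fold lower in DEN fibers, with a log2 fold change of -1.95 (SE 0.10, edgeR adjusted p = 5.75e-07). In whole muscle Wnt4 had 16.9, 17.2, 14.1 and 12.7 normalised CPM after DEN, against 25.1, 26.7, 26.8 and 21.2 after sham surgery. The groups did not overlap there either, and Wnt4 was 1.64-fold lower after DEN with a log2 fold change of -0.72 (SE 0.11, edgeR adjusted p = 0.000136).

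Wnt5a, the prototype ligand of the pathways that do not use beta-catenin, was lower in both preparations. Wnt5a (ENSMUSG00000021994, chromosome 14, 28504750 to 28527448, plus strand) had 2.46, 3.01, 4.05 and 3.39 normalised CPM in DEN fibers, against 5.71, 4.81, 4.998 and 6.01 in sham fibers. In whole muscle Wnt5a had 2.03, 1.77, 2.47 and 1.66 normalised CPM after DEN, against 4.64, 5.17, 3.98 and 4.05 after sham surgery. Neither pair of groups overlapped, and the log2 fold changes were -0.73 (SE 0.16, edgeR adjusted p = 0.00299) in fibers and -1.17 (SE 0.14, edgeR adjusted p = 3.01e-05) in whole muscle. With total counts the value in fibers was -0.23 and was no longer called.

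Its close relative Wnt5b moved the other way. Wnt5b (ENSMUSG00000030170, chromosome 6, 119432531 to 119544347, minus strand) had 4.95, 5.31, 4.61 and 4.87 normalised CPM in DEN fibers, against 2.25, 2.78, 1.47 and 1.10 in sham fibers. In whole muscle it had 5.33, 5.06, 4.49 and 4.84 normalised CPM after DEN, against 2.04, 1.07, 1.02 and 1.41 after sham surgery. The DEN libraries lay above the sham libraries in both preparations, without overlap. Wnt5b was 2.62-fold higher in DEN fibers, with a log2 fold change of 1.39 (SE 0.24, edgeR adjusted p = 0.00093). It was 3.53-fold higher in DEN whole muscle, with a log2 fold change of 1.82 (SE 0.19, edgeR adjusted p = 8.93e-06). Between the preparations, the DEN effect differed by -0.44 (SE 0.33, edgeR adjusted p = 0.373) on the log2 scale, with an interval of -1.09 to 0.20, which spans 0.

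Wnt9a, a ligand of joint and skeletal development, was called in whole muscle. Wnt9a (ENSMUSG00000000126, chromosome 11, 59306928 to 59333552, plus strand) had 25.7, 31.6, 24.1 and 26.6 normalised CPM in DEN whole muscle, against 19.6, 20.4, 20.7 and 21.2 in sham whole muscle. The groups did not overlap, and the log2 fold change was 0.39 (SE 0.08, edgeR adjusted p = 0.000962). In fibers Wnt9a had 10.8, 11.3, 12.1 and 12.6 normalised CPM after DEN, against 12.5, 12.4, 11.8 and 11.7 after sham surgery, and these groups overlapped. The log2 fold change in fibers was -0.04 (SE 0.07, edgeR adjusted p = 0.643), and with total counts it turned to 0.45 and was called higher.

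Wnt11, a ligand best known from gastrulation movements, had 7.77, 7.02, 6.96 and 6.97 normalised CPM in DEN whole muscle, against 9.53, 8.95, 8.85 and 11.7 in sham whole muscle. The DEN libraries lay below the sham libraries, with a log2 fold change of -0.45 (SE 0.10, edgeR adjusted p = 0.00219), and with total counts the value was -0.02 and was not called. In fibers the log2 fold change of Wnt11 was -0.14 (SE 0.10, edgeR adjusted p = 0.242), which turned to 0.34 with total counts and was then called higher.

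**Figure D3:**
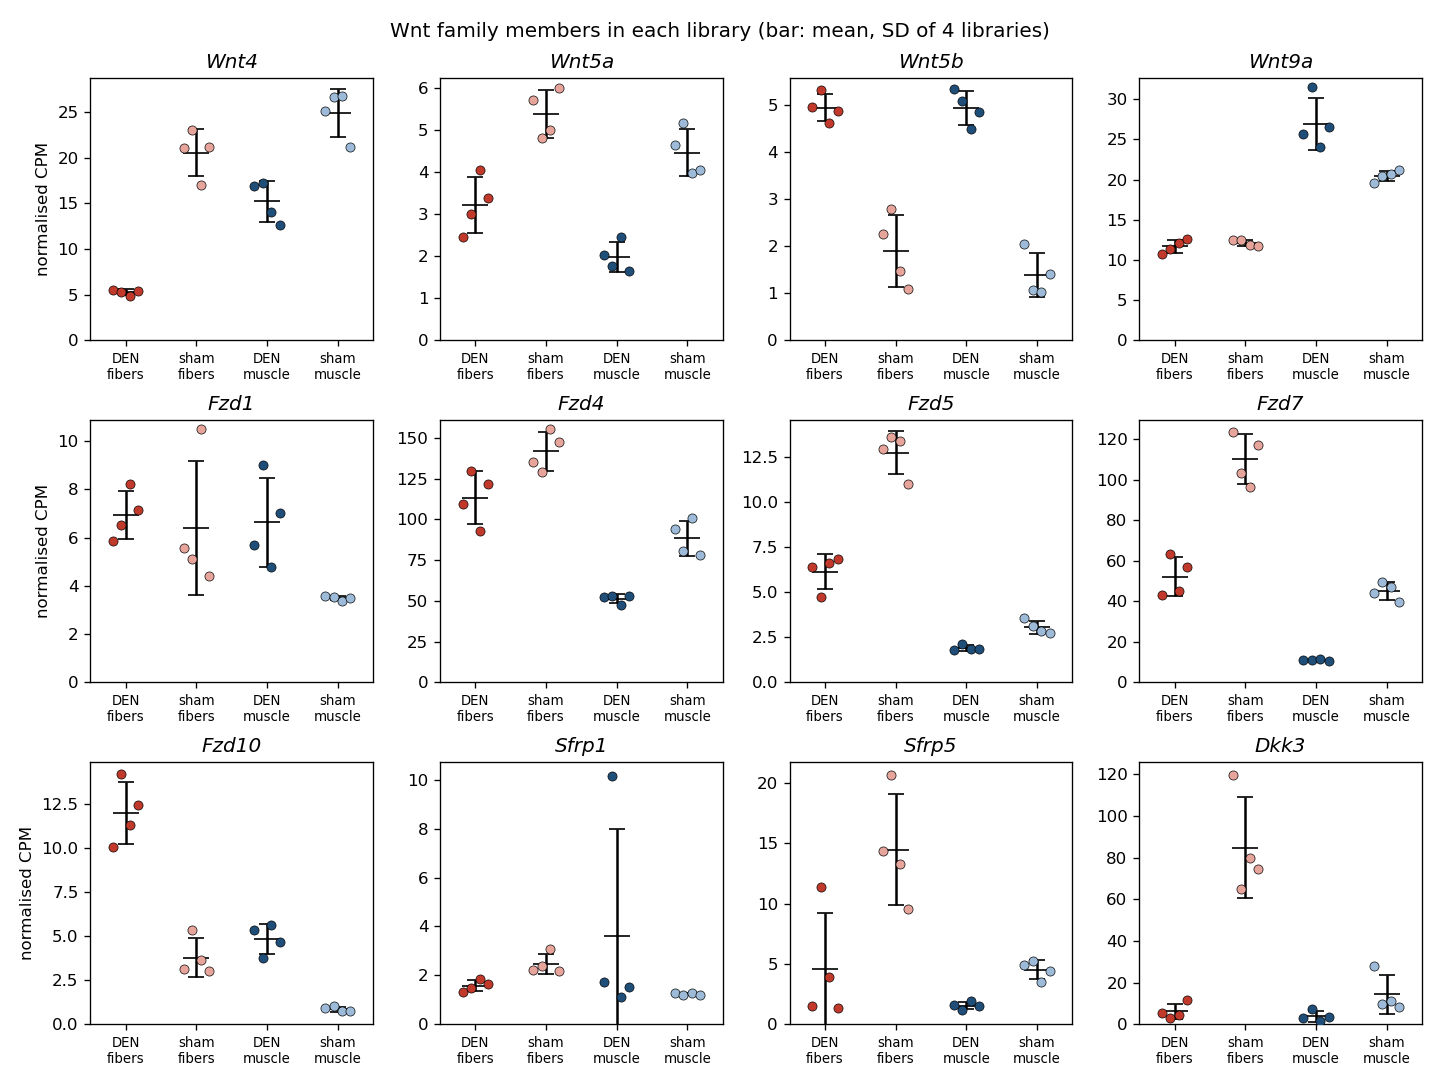
Normalised CPM of 12 members in each library, with DEN left of sham for fibers and for whole muscle; points are libraries and bars the mean and SD of 4 libraries. Fzd7 lies lower and Fzd10 higher after DEN in both preparations, and 1 DEN whole muscle library carries the level of Sfrp1.

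Of the 10 receptors, Fzd10 and Fzd7 changed most. Fzd10 (ENSMUSG00000081683, chromosome 5, 128600844 to 128604093, plus strand) had 10.02, 14.2, 11.3 and 12.4 normalised CPM in DEN fibers, against 3.14, 5.36, 3.63 and 3.005 in sham fibers. In whole muscle it had 5.35, 3.74, 5.60 and 4.68 normalised CPM after DEN, against 0.915, 1.04, 0.731 and 0.772 after sham surgery. All DEN libraries lay above the sham libraries of their preparation. Fzd10 was 3.18-fold higher in DEN fibers, with a log2 fold change of 1.67 (SE 0.19, edgeR adjusted p = 5.98e-05), and 5.59-fold higher in DEN whole muscle, with a log2 fold change of 2.48 (SE 0.17, edgeR adjusted p = 3.15e-07). An antisense gene, Fzd10os, lies beside it, and the authors counted reads with strand, which keeps the pair apart.

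Fzd7, a receptor for Wnt7a on muscle stem cells and among the most abundant receptors here, was lower after DEN. Fzd7 (ENSMUSG00000041075, chromosome 1, 59482424 to 59486955, plus strand) had 43.01, 63.4, 45.3 and 56.8 normalised CPM in DEN fibers, against 124, 103, 96.7 and 117 in sham fibers. In whole muscle it had 11.2, 10.9, 11.5 and 10.5 normalised CPM after DEN, against 44.0, 49.8, 46.9 and 39.9 after sham surgery. The groups did not overlap in either preparation. Fzd7 was 2.11-fold lower in DEN fibers, with a log2 fold change of -1.07 (SE 0.13, edgeR adjusted p = 0.000107), and 4.11-fold lower in DEN whole muscle, with a log2 fold change of -2.04 (SE 0.07, edgeR adjusted p = 2.07e-09). Wnt7a itself did not pass the filter on low counts. Over 8 markers of muscle stem cells the summed level was 254 to 275 normalised CPM in DEN fibers and 198 to 219.5 in sham fibers, and 179 to 213 in DEN whole muscle and 209 to 234 in sham whole muscle, most of it from Itga7, which muscle fibers also express. The defining marker Pax7 lay at 2.497 to 3.58 normalised CPM in DEN fibers and 1.30 to 2.89 in sham fibers, with overlap. In whole muscle the normalised CPM of Pax7 was lower in every DEN library than in every sham library. The part of these cells in the value of Fzd7 was not tested.

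Fzd4, the receptor for Norrin on endothelial cells, had 52.6, 53.0, 47.5 and 52.7 normalised CPM in DEN whole muscle, against 93.8, 80.3, 101 and 78.4 in sham whole muscle, without overlap. The log2 fold change was -0.79 (SE 0.08, edgeR adjusted p = 6.08e-06). Over the 8 endothelial markers the summed level was 270.4 to 326 normalised CPM in DEN whole muscle and 511 to 550.3 in sham whole muscle. In fibers the same sum was 321 to 532 normalised CPM after DEN and 364 to 554 after sham surgery, with overlap. The part of these cells in the value of Fzd4 was not tested. In bulk samples, fewer cells of a type and less RNA per cell cannot be told apart. In fibers Fzd4 had 109, 129.8, 92.8 and 121 normalised CPM after DEN, against 135, 129, 155 and 148 after sham surgery, and the groups overlapped. The log2 fold change in fibers was -0.32 (SE 0.11, edgeR adjusted p = 0.03), which turned to 0.16 with total counts. This call was lost without DEN fiber library 1 or 3 or sham fiber library 3 or 4, where the edgeR adjusted p lay between 0.0537 and 0.0768, and without the filter on low counts (0.0541).

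Fzd5, a receptor known from eye and intestine, had 6.41, 4.72, 6.63 and 6.82 normalised CPM in DEN fibers, against 12.96, 13.6, 13.4 and 11.02 in sham fibers. In whole muscle it had 1.79, 2.15, 1.86 and 1.86 normalised CPM after DEN, against 3.56, 3.11, 2.87 and 2.74 after sham surgery. Neither pair overlapped, and the log2 fold changes were -1.05 (SE 0.13, edgeR adjusted p = 9.09e-05) in fibers and -0.69 (SE 0.11, edgeR adjusted p = 0.000292) in whole muscle. With total counts the value in whole muscle was -0.26 and was not called.

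Fzd8 and Fzd9 changed less. Fzd8 had 7.65, 8.39, 10.2 and 7.26 normalised CPM in DEN fibers, against 11.6, 12.1, 12.9 and 10.9 in sham fibers, with a log2 fold change of -0.49 (SE 0.11, edgeR adjusted p = 0.00478), which became 0.00 with total counts. In whole muscle Fzd8 had a log2 fold change of -0.40 (SE 0.07, edgeR adjusted p = 0.000705), which turned to 0.03 with total counts. The call of Fzd8 thus rested on the scaling in both preparations. Fzd9, a receptor known from bone and brain, had 18.4, 16.2, 16.6 and 14.8 normalised CPM in DEN whole muscle, against 21.1, 20.0, 18.8 and 20.9 in sham whole muscle, and its log2 fold change of -0.30 (SE 0.07, edgeR adjusted p = 0.00429) turned to 0.13 with total counts. In fibers Fzd9 had a log2 fold change of -0.22 (SE 0.11, edgeR adjusted p = 0.14), which turned to 0.27 with total counts and was then called higher. Without DEN fiber library 2 it was called lower, at -0.32 (edgeR adjusted p = 0.022).

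Fzd1, Fzd3 and Fzd6 were called higher in 1 preparation each. Fzd1 had 5.69, 9.01, 4.77 and 7.04 normalised CPM in DEN whole muscle, against 3.58, 3.56, 3.39 and 3.51 in sham whole muscle, without overlap and with a log2 fold change of 0.91 (SE 0.17, edgeR adjusted p = 0.000695). In fibers Fzd1 had 5.85, 6.50, 8.22 and 7.14 normalised CPM after DEN, against 5.58, 5.10, 10.5 and 4.42 after sham surgery, with a log2 fold change of 0.12 (SE 0.25, edgeR adjusted p = 0.719). Sham fiber library 3, the highest of its group for Fzd1, also held 1983 normalised CPM over 7 tenocyte markers, against 186, 380.1 and 503 in the other sham fiber libraries. The same sum was 701 to 1016 normalised CPM in DEN fibers, 235 to 458 in DEN whole muscle and 92.3 to 267 in sham whole muscle. Over 10 markers of fibro-adipogenic progenitors sham fiber library 3 held 1899 normalised CPM, against 582, 565 and 749 in the other sham fiber libraries. In whole muscle that sum was 796, 1657, 582 and 1149.85 in DEN libraries 1 to 4 and 711 to 1096 after sham surgery. The part of tenocytes or of fibro-adipogenic cells in the values of Fzd1 was not tested. Without sham fiber library 3 Fzd1 was called higher in fibers too, at 0.46 (edgeR adjusted p = 0.0195).

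Fzd6, a receptor of planar cell polarity in skin and hair, had 9.11, 5.13, 6.70 and 5.46 normalised CPM in DEN fibers, against 5.29, 3.69, 4.15 and 3.999 in sham fibers. The groups overlapped, with a log2 fold change of 0.63 (SE 0.19, edgeR adjusted p = 0.0191), and without sham fiber library 2 the value was 0.57 (edgeR adjusted p = 0.0511). In whole muscle the log2 fold change of Fzd6 was 0.05 (SE 0.11, edgeR adjusted p = 0.723), or 0.48 with total counts, where it was called higher. Fzd3, which acts in axon guidance, had 0.255, 0.488, 0.414 and 0.268 normalised CPM in DEN whole muscle, against 0.0832, 0.0995, 0.173 and 0.309 in sham whole muscle, with overlap and a log2 fold change of 1.05 (SE 0.40, edgeR adjusted p = 0.0373). That call was lost without DEN whole muscle library 2 or 3 or sham whole muscle library 1, 2 or 3, where the edgeR adjusted p lay between 0.0796 and 0.104, and also by DESeq2 (adjusted p = 0.05) and in the edgeR fit of all 16 libraries (adjusted p = 0.0631). In fibers Fzd3 was not called, with 0.53 (SE 0.37, edgeR adjusted p = 0.248), but was called higher with total counts, at 1.04. Fzd2, the remaining receptor, was not called, with 0.27 (SE 0.21, edgeR adjusted p = 0.295) in fibers and 0.21 (SE 0.15, edgeR adjusted p = 0.239) in whole muscle, but was called higher in both with total counts, at 0.77 and 0.64.

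**Figure D4:**
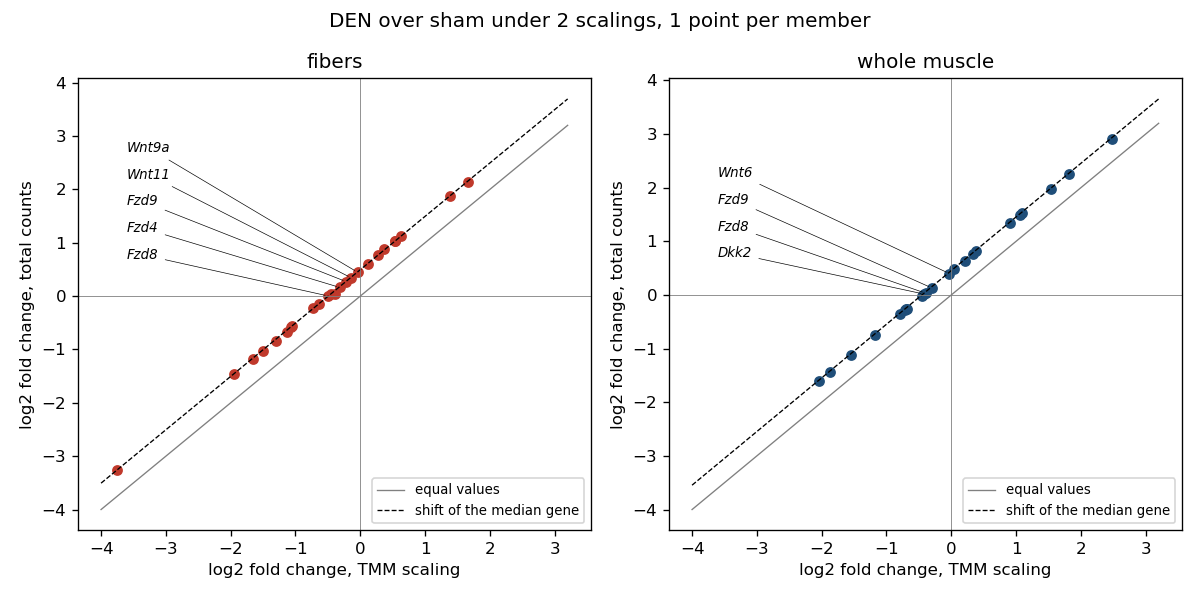
Log2 fold change of DEN over sham with TMM scaling (x axis) and with total counts alone (y axis), 1 point per member tested; the dashed line is shifted by the change of the median gene, 0.49 in fibers and 0.45 in whole muscle. Named members change sign between the scalings and were called under at least 1 of them.

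Dkk3, a divergent Dickkopf protein that does not act like the other members on Lrp6, was lower after DEN. Dkk3 (ENSMUSG00000030772, chromosome 7, 112116017 to 112159057, minus strand) had 5.61, 3.29, 4.72 and 11.5 normalised CPM in DEN fibers, against 119.7, 64.8, 80.0 and 74.5 in sham fibers. Every DEN fiber library lay below every sham fiber library. It was 13.5-fold lower in DEN fibers, with a log2 fold change of -3.76 (SE 0.37, edgeR adjusted p = 2.73e-05). In whole muscle Dkk3 had 3.03, 7.49, 1.42 and 3.79 normalised CPM after DEN, against 28.2, 9.75, 11.3 and 8.42 after sham surgery. The groups did not overlap, sham library 1 stood above the others, and the log2 fold change was -1.87 (SE 0.49, edgeR adjusted p = 0.00596). Over 7 Schwann cell markers the summed level was 23.0 to 59.97 normalised CPM in DEN fibers and 65.3 to 121 in sham fibers. In whole muscle the sum was 22.1 to 28.5 normalised CPM after DEN and 32.7 to 36.3 after sham surgery. In fibers most of the fall lay in the myelin genes Mbp and Pmp22, whereas Ngfr, the low-affinity neurotrophin receptor, had 2.95 to 19.4 normalised CPM in DEN fibers, against 0.995 to 2.20 in sham fibers. Of the 7 markers, 4 were called lower and 1 higher in fibers, where 27.0% of all genes were lower and 27.1% higher. In whole muscle 3 were lower and 1 higher, against 32.2% and 34.0% of all genes. The part of Schwann cells in the value of Dkk3 was not tested.

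The other Dickkopf gene that passed the filter, Dkk2, is an inhibitor that binds Lrp6. Dkk2 had 1.34, 1.26, 1.04 and 1.52 normalised CPM in DEN whole muscle, against 1.94, 1.62, 1.67 and 1.602 in sham whole muscle. The groups did not overlap, and the log2 fold change was -0.41 (SE 0.14, edgeR adjusted p = 0.0217), which turned to 0.01 with total counts. The call was lost without DEN library 2 or 3 or sham library 1 of whole muscle, where the edgeR adjusted p lay between 0.0508 and 0.0621, and in the fit of all 16 libraries (0.051). In fibers Dkk2 was not called, with -0.45 (SE 0.23, edgeR adjusted p = 0.13), or 0.03 with total counts.

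Sfrp5, a secreted inhibitor best known from adipose tissue, was lower after DEN. Sfrp5 (ENSMUSG00000018822, chromosome 19, 42197971 to 42202252, minus strand) had 1.58, 1.19, 1.94 and 1.5003 normalised CPM in DEN whole muscle, against 4.95, 5.25, 3.501 and 4.42 in sham whole muscle. The groups did not overlap, and Sfrp5 was 2.94-fold lower after DEN, with a log2 fold change of -1.55 (SE 0.17, edgeR adjusted p = 1.36e-05). In fibers Sfrp5 had 1.56, 11.3, 3.96 and 1.35 normalised CPM after DEN, against 14.4, 20.6, 13.3 and 9.54 after sham surgery. DEN fiber library 2 lay within the range of the sham fiber libraries. The log2 fold change in fibers was -1.66 (SE 0.60, edgeR adjusted p = 0.0391), and it was -2.64 (edgeR adjusted p = 0.000753) without DEN fiber library 2. Without DEN fiber library 1, 3 or 4 or sham fiber library 1 or 2 the call was lost, with edgeR adjusted p between 0.0611 and 0.0882, and with total counts the value was -1.18 (adjusted p = 0.0922).

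Sfrp1, which binds Wnt ligands and is made by fibroblasts, had 1.33, 1.48, 1.85 and 1.63 normalised CPM in DEN fibers, against 2.23, 2.39, 3.07 and 2.18 in sham fibers. These groups did not overlap, and the log2 fold change was -0.64 (SE 0.16, edgeR adjusted p = 0.00669). With total counts the value was -0.16 and was not called, and in the edgeR fit of all 16 libraries it was -0.65 (adjusted p = 0.303). In whole muscle Sfrp1 had 1.73, 10.2, 1.11 and 1.52 normalised CPM after DEN, against 1.29, 1.22, 1.27 and 1.22 after sham surgery, and library 2 of the DEN group stood far above all others. The log2 fold change was 1.54 (SE 0.65, edgeR adjusted p = 0.0587), and it was 0.22 (edgeR adjusted p = 0.291) without DEN library 2. With that library kept, leaving out DEN library 1, 3 or 4 instead brought the edgeR adjusted p to between 0.0238 and 0.0422, and it was called higher under total counts (0.0211), the absence of a filter (0.0217) and the fit of all 16 libraries (0.0186), all with DEN library 2 kept. DESeq2 gave no adjusted p for Sfrp1 in whole muscle. DEN whole muscle library 2 also held the highest level of Sfrp2 in its group, at 3.52 normalised CPM against 0.571, 0.282 and 0.911 in the other libraries. Over 10 markers of fibro-adipogenic progenitors it held 1657 normalised CPM, against 796, 582 and 1149.8 in the other DEN libraries and 711 to 1096 in sham whole muscle. Most of the sum in DEN whole muscle library 2 came from the collagen genes Col1a1 and Col3a1, with 38935 and 49861 counts. In DEN fibers the sum was 932 to 1269 normalised CPM and in sham fibers 565 to 1899, and the part of these cells in the values of Sfrp1 was not tested.

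Sfrp2 and Sfrp4 were not called after DEN with TMM scaling. Sfrp2 was tested in whole muscle, with 1.10 (SE 0.66, edgeR adjusted p = 0.165). Sfrp4 had log2 fold changes of 0.54 (SE 0.24, edgeR adjusted p = 0.0846) in fibers and 0.34 (SE 0.27, edgeR adjusted p = 0.296) in whole muscle, and was called higher in both with total counts, at 1.03 and 0.77.

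A further set of members was low and uneven among the fiber libraries. Wnt2b, a ligand known from lung and liver development, had 0.162, 0.733, 0.181 and 0.303 normalised CPM in DEN fibers, against 0.864, 1.18, 0.926 and 0.465 in sham fibers. The groups overlapped through DEN fiber library 2, and the log2 fold change was -1.30 (SE 0.47, edgeR adjusted p = 0.0405). Without DEN fiber library 2 it was -1.99 (edgeR adjusted p = 0.00218), and without DEN fiber library 1, 3 or 4 or sham fiber library 1, 2 or 3 the call was lost, with edgeR adjusted p between 0.0625 and 0.0999. With total counts it was -0.83 (edgeR adjusted p = 0.129). Wnt2b lay at 0.0166 to 0.0419 normalised CPM in DEN whole muscle and 0.0249 to 0.135 in sham whole muscle, too low for a test of DEN there.

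Wnt6 and Wnt10a, neighbours on chromosome 1 with 6193 bases between them, were both highest in library 2 of each fiber group. Wnt10a had 0.162, 0.598, 0.0557 and 0.135 normalised CPM in DEN fibers, against 0.576, 1.003, 0.695 and 0.444 in sham fibers, with a log2 fold change of -1.497 (SE 0.57, edgeR adjusted p = 0.0501). Wnt6 had 0.259, 1.55, 0.334 and 0.674 normalised CPM in DEN fibers, against 1.28, 1.98, 1.87 and 1.06 in sham fibers, with a log2 fold change of -1.13 (SE 0.50, edgeR adjusted p = 0.0802). Neither was called. In whole muscle Wnt6 had a log2 fold change of -0.03 (SE 0.16, edgeR adjusted p = 0.921), which turned to 0.40 with total counts and was then called higher. Wnt16, a ligand known from bone, was highest in library 2 of both fiber groups, with 0.837 normalised CPM after DEN and 1.96 after sham surgery, and its log2 fold change was -0.39 (SE 0.79, edgeR adjusted p = 0.698), which turned to 0.05 with total counts.

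Wnt2b, Wnt6, Wnt10a, Wnt16 and Sfrp5 were each highest in library 2 among the DEN fiber libraries and in library 2 among the sham fiber libraries. The same held for Wnt5b and Fzd10, and Wnt11, Fzd4, Fzd7 and Fzd9 were highest in library 2 of DEN fibers but not of sham fibers. The pattern is thus not particular to the members first named. Cldn1, Itgb4, Tenm2, Moxd1, Lypd2 and Slc2a1, 6 genes of the perineurium (the sheath around nerve fascicles) that were listed after these values were seen, were all highest in library 2 among the DEN fiber libraries. Among the sham fiber libraries Cldn1 was highest in library 3, Slc2a1 in library 1 and the other 4 in library 2. Of these genes, the glucose transporter Slc2a1 is also expressed by muscle fibers and made up most of the summed level. The claudin Cldn1 had 0.681, 3.57, 1.62 and 0.707 normalised CPM in DEN fibers, against 3.59, 4.49, 4.92 and 3.597 in sham fibers. Over the 6 genes the summed level was 66.3 to 110.4 normalised CPM in DEN fibers and 54.8 to 102 in sham fibers. In whole muscle the sum was 16.8 to 18.8 normalised CPM after DEN and 17.8 to 23.0 after sham surgery, below every fiber library. The part of such cells in the values of these members was not tested.

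**Figure D5:**
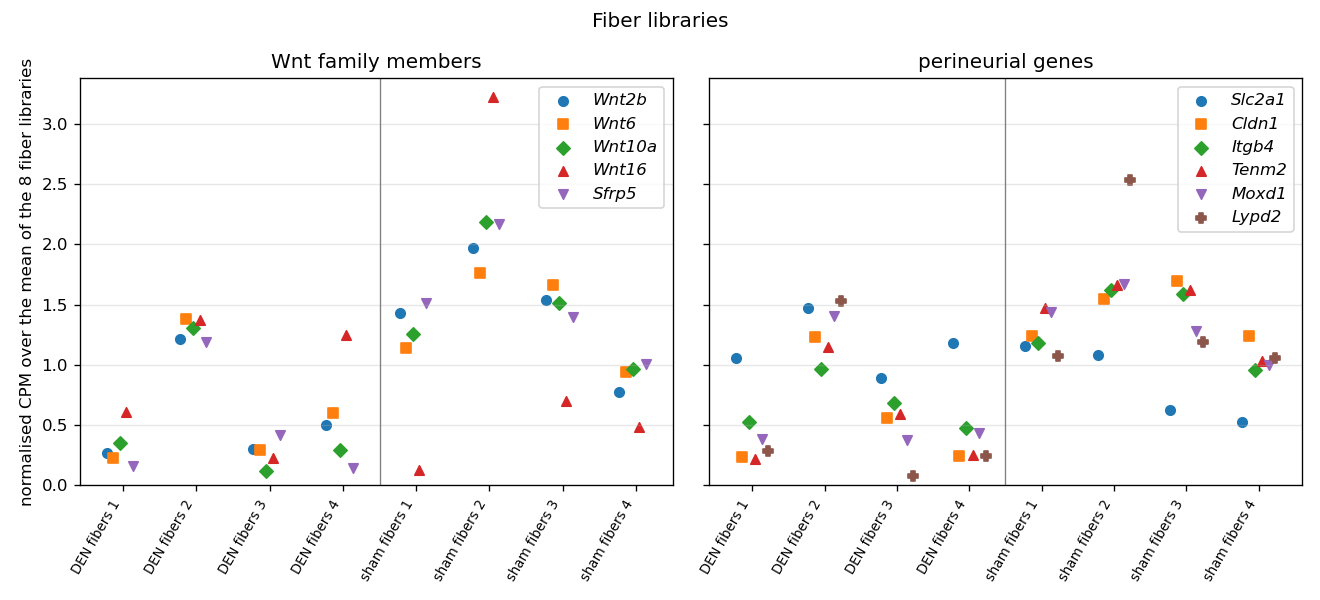
Normalised CPM of 5 members (left) and of 6 perineurial genes (right) in each fiber library, divided by the mean of the 8 fiber libraries, with DEN libraries left of the line. In both panels DEN fiber library 2 stands above the other DEN fiber libraries for every gene drawn, and for Wnt16 library 4 lies close to it.

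Wnt2 and Wnt10b complete the members that passed the filter. Wnt10b, a ligand that restrains fat formation, was not called, with 0.37 (SE 0.50, edgeR adjusted p = 0.558) in fibers and -0.69 (SE 0.35, edgeR adjusted p = 0.108) in whole muscle. Wnt2 lay at 0.0748 to 0.227 normalised CPM in DEN fibers, 0.0965 to 0.190 in sham fibers, 0.0893 to 0.153 in DEN whole muscle and 0.0497 to 0.250 in sham whole muscle.

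The next question was whether DEN changed a member by a different amount in fibers and in whole muscle, tested as the difference of the log2 fold changes (fibers minus whole muscle) over 16 libraries. Of 27 members tested, 2 had a higher and 4 a lower difference, and with total counts it was 2 and 2. Over all 17497 genes tested, 7.09% were higher and 11.8% lower, and the median difference was -0.26 over the members and -0.03 over all genes. For Wnt4 the difference was -1.25 (SE 0.16, edgeR adjusted p = 5.73e-05), for Wnt9a -0.44 (SE 0.11, edgeR adjusted p = 0.00832) and for Fzd7 0.95 (SE 0.16, edgeR adjusted p = 0.000714). These 3 stayed called with the same sign without any 1 library.

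For Fzd4 the difference was 0.46 (SE 0.14, edgeR adjusted p = 0.0344), and without DEN whole muscle library 3 the edgeR adjusted p was 0.0533. For Fzd10 it was -0.83 (SE 0.27, edgeR adjusted p = 0.04), and the call was lost without DEN fiber library 1, 3 or 4, sham fiber library 2, DEN whole muscle library 1, 3 or 4 or any 1 sham whole muscle library, with edgeR adjusted p between 0.0522 and 0.109, and with total counts (0.073) or no filter (0.0551). For Sfrp1 the difference was -2.20 (SE 0.74, edgeR adjusted p = 0.0496), and it was -0.83 (edgeR adjusted p = 0.027) without DEN whole muscle library 2. Leaving out any 1 library of DEN fibers, sham fibers or sham whole muscle ended the call of Sfrp1, with edgeR adjusted p between 0.0666 and 0.0903, and with total counts it was -2.14 (adjusted p = 0.0652). Near the threshold were Dkk3, with a difference of -1.90 (SE 0.66, edgeR adjusted p = 0.0538), and Fzd6, with 0.57 (SE 0.23, edgeR adjusted p = 0.0978). The call of Dkk3 was gained without DEN fiber library 4, DEN whole muscle library 3 or sham whole muscle library 1 (edgeR adjusted p between 0.0157 and 0.0327) or without the filter (0.0437), and that of Fzd6 without DEN fiber library 2 or sham fiber library 1 (edgeR adjusted p of 0.0413 and 0.0424).

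Between the preparations after sham surgery, 13 of 25 members were higher and 4 lower in fibers, against 25.5% higher and 23.2% lower over all 16005 genes tested. After DEN, 11 of 25 were higher and 4 lower in fibers, against 30.2% and 26.4% over all 16856 genes tested. Each of these comparisons shares its libraries with the comparisons of DEN above. Of the 10 Frizzled receptors, 7 were higher in sham fibers and 6 in DEN fibers, and 0 were lower in fibers by edgeR, by DESeq2 or at an unadjusted p below 0.05. Without sham fiber library 1, Fzd6 was lower in sham fibers than in sham whole muscle.

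Fzd5 was 3.29-fold higher in DEN fibers than in DEN whole muscle, with a log2 fold change of 1.72 (SE 0.13, edgeR adjusted p = 3.34e-06), and 4.11-fold higher in sham fibers than in sham whole muscle, with 2.04 (SE 0.11, edgeR adjusted p = 9.6e-07). Wnt9a was 2.25-fold lower in DEN fibers than in DEN whole muscle, with -1.17 (SE 0.09, edgeR adjusted p = 2.8e-06), and 1.71-fold lower in the sham preparations, with -0.78 (SE 0.06, edgeR adjusted p = 8.84e-06). Dkk2 was lower in fibers as well, with -1.19 (SE 0.18, edgeR adjusted p = 0.000263) after DEN and -1.19 (SE 0.19, edgeR adjusted p = 0.000665) after sham surgery. For Wnt2b the difference was 3.41 (SE 0.66, edgeR adjusted p = 0.00143) after DEN and 3.61 (SE 0.45, edgeR adjusted p = 0.000137) after sham surgery, fibers over whole muscle. Dkk3 was higher in sham fibers than in sham whole muscle, at 2.54 (SE 0.37, edgeR adjusted p = 0.000372), and was not called after DEN, at 0.69 (SE 0.49, edgeR adjusted p = 0.25).

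The members act through coreceptors, of which a list of 9 held Lrp5, Lrp6 and receptors of the other branches. In fibers 3 of 9 tested were higher and 3 lower after DEN (median -0.22), against 27.1% and 27.0% of all genes tested. In whole muscle 3 of 9 were higher and 4 lower (median -0.36), against 34.0% and 32.2% of all genes. With total counts 5 were higher and 0 lower in fibers, and 4 higher and 4 lower in whole muscle. Over all genes, total counts gave 9950 higher and 1494 lower of 16724 in fibers, and 9983 and 2273 of 16379 in whole muscle. These values apply to each pathway list below. Musk, the receptor kinase of the motor endplate with a Frizzled-like domain, had 87.9 ± 8.12 normalised CPM in DEN fibers and 11.7 ± 0.592 in sham fibers (SD, n = 4 each). In whole muscle Musk had 32.5 ± 7.10 normalised CPM after DEN and 4.31 ± 1.002 after sham surgery. Its log2 fold changes were 2.91 (SE 0.08, edgeR adjusted p = 2.19e-08) in fibers and 2.91 (SE 0.18, edgeR adjusted p = 2.1e-07) in whole muscle. Ror1, a receptor of Wnt5a, was higher as well, at 0.90 (SE 0.22, edgeR adjusted p = 0.00636) in fibers and 0.58 (SE 0.11, edgeR adjusted p = 0.000705) in whole muscle.

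Lrp5 and Lrp6, the coreceptors of the beta-catenin branch, were called lower in both preparations. Lrp5 had -0.43 (SE 0.12, edgeR adjusted p = 0.0157) in fibers, which turned to 0.07 with total counts, and -0.75 (SE 0.10, edgeR adjusted p = 4.62e-05) in whole muscle. Lrp6 had -0.22 (SE 0.06, edgeR adjusted p = 0.0151) in fibers, which turned to 0.26 with total counts, and -0.66 (SE 0.07, edgeR adjusted p = 6.44e-06) in whole muscle. The glypican Gpc3 was lower in whole muscle, at -1.07 (SE 0.14, edgeR adjusted p = 6.77e-05), and was not called in fibers, at -0.28 (SE 0.31, edgeR adjusted p = 0.482), which turned to 0.22 with total counts.

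A list of 23 genes for secretion of Wnt ligands and for their control outside the cell was tested for 15 genes in fibers, of which 5 were higher and 4 lower (median 0.08), and for 13 in whole muscle, of which 4 were higher and 5 lower (median 0.06). With total counts 8 were higher and 4 lower in fibers, and 7 higher and 2 lower in whole muscle. With TMM scaling, 27.1% of all genes tested were higher and 27.0% lower in fibers, and 34.0% and 32.2% in whole muscle. Kremen1, the receptor through which Dickkopf proteins remove Lrp6, had 134 ± 7.04 normalised CPM in DEN fibers and 53.9 ± 4.63 in sham fibers (SD, n = 4 each), with a log2 fold change of 1.32 (SE 0.08, edgeR adjusted p = 1.05e-06). In whole muscle the log2 fold change of Kremen1 was 1.14 (SE 0.07, edgeR adjusted p = 1.82e-07). Of the R-spondin receptors, Lgr5 was higher, at 2.75 (SE 0.44, edgeR adjusted p = 0.000541) in fibers and 2.31 (SE 0.31, edgeR adjusted p = 6.45e-05) in whole muscle. Lgr4 was lower, at -0.89 (SE 0.07, edgeR adjusted p = 8.18e-06) in fibers and -1.38 (SE 0.04, edgeR adjusted p = 1.77e-09) in whole muscle. Apcdd1, a membrane protein that inhibits Wnt signalling, was lower, at -1.57 (SE 0.30, edgeR adjusted p = 0.00165) in fibers and -1.05 (SE 0.33, edgeR adjusted p = 0.0155) in whole muscle. Cthrc1, a secreted collagen-related protein that binds Wnt ligands and their receptors, was higher, at 2.15 (SE 0.44, edgeR adjusted p = 0.00248) in fibers and 5.63 (SE 1.06, edgeR adjusted p = 0.000767) in whole muscle, where its DEN libraries ranged over 0.348 to 10.2 normalised CPM and its sham libraries over 0.0385 to 0.125.

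Inside the cell, a list of 35 transduction genes was tested for 34 in fibers, of which 7 were higher and 9 lower (median -0.05), and for 33 in whole muscle, of which 8 were higher and 17 lower (median -0.20). With total counts 19 were higher and 2 lower in fibers, and 18 higher and 7 lower in whole muscle. With TMM scaling, 27.1% of all genes tested were higher and 27.0% lower in fibers, and 34.0% and 32.2% in whole muscle. With total counts, 9950 of all 16724 genes were higher and 1494 lower in fibers, and 9983 and 2273 of 16379 in whole muscle. Ctnnb1, which encodes beta-catenin, had 247 ± 10.999 normalised CPM in DEN fibers and 244 ± 9.85 in sham fibers (SD, n = 4 each), and its log2 fold changes were 0.02 (SE 0.06, edgeR adjusted p = 0.769) in fibers and 0.04 (SE 0.04, edgeR adjusted p = 0.364) in whole muscle. Celsr3, an atypical cadherin of planar cell polarity, was higher, at 2.49 (SE 0.28, edgeR adjusted p = 5.97e-05) in fibers and 3.23 (SE 0.35, edgeR adjusted p = 1.39e-05) in whole muscle. Pygo1, a coactivator of beta-catenin, was lower, at -1.20 (SE 0.14, edgeR adjusted p = 8.12e-05) in fibers and -1.604 (SE 0.10, edgeR adjusted p = 1.67e-07) in whole muscle. The kinase Csnk1e, which acts on Dishevelled, was lower, at -0.95 (SE 0.10, edgeR adjusted p = 3.93e-05) in fibers and -0.84 (SE 0.05, edgeR adjusted p = 1.33e-07) in whole muscle. Tcf7l1, a TCF factor that mostly represses, was lower, at -0.62 (SE 0.14, edgeR adjusted p = 0.00444) in fibers and -1.22 (SE 0.09, edgeR adjusted p = 8.31e-07) in whole muscle. Bcl9l, which links beta-catenin to Pygo proteins, was lower, at -0.36 (SE 0.14, edgeR adjusted p = 0.0482) in fibers, which turned to 0.11 with total counts, and -0.80 (SE 0.10, edgeR adjusted p = 3.03e-05) in whole muscle.

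Of 17 genes known as targets of beta-catenin in other tissues, 13 were tested in each preparation. This list is not separate from those above. It shares Lgr5, Apcdd1, Notum, Znrf3 and Rnf43 with the list for secretion and control outside the cell, and Lef1 and Tcf7 with the transduction list. The calls of Lgr5 and Apcdd1 given above are thus counted here again. In fibers 3 were higher and 3 lower (median 0.14), against 27.1% and 27.0% of all genes tested. In whole muscle 4 were higher and 5 lower (median 0.08), against 34.0% and 32.2% of all genes. With total counts 5 were higher and 3 lower in fibers, and 7 higher and 2 lower in whole muscle. Axin2, the most widely used target, had 14.5 ± 3.06 normalised CPM in DEN fibers and 11.97 ± 3.25 in sham fibers (SD, n = 4 each), and the log2 fold change was 0.28 (SE 0.20, edgeR adjusted p = 0.263). In whole muscle Axin2 had 9.55 ± 0.779 normalised CPM after DEN and 8.49 ± 1.09 after sham surgery, with 0.16 (SE 0.10, edgeR adjusted p = 0.171). Follistatin (Fst), an activin and myostatin antagonist, was higher, at 2.06 (SE 0.17, edgeR adjusted p = 1.03e-05) in fibers and 2.76 (SE 0.17, edgeR adjusted p = 1.84e-07) in whole muscle. Tnfrsf19, a receptor of the tumour necrosis factor family, was lower, at -1.58 (SE 0.14, edgeR adjusted p = 1.44e-05) in fibers and -1.37 (SE 0.14, edgeR adjusted p = 8.06e-06) in whole muscle. Myc was higher in whole muscle, at 1.77 (SE 0.21, edgeR adjusted p = 2.66e-05), and was not called in fibers, at -0.21 (SE 0.23, edgeR adjusted p = 0.454), which turned to 0.28 with total counts. The difference of its DEN effects was -1.996 (SE 0.34, edgeR adjusted p = 0.000834).

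The label of the tissue was checked on 7 genes of muscle fibers, which summed to 64917 to 84363 normalised CPM in DEN fibers and 165123 to 206428 in sham fibers, and to 98824 to 106690.0 in DEN whole muscle and 196546 to 225253 in sham whole muscle. All 7 were present in every library. The sum over 8 macrophage markers was 90.0 to 125 normalised CPM in DEN fibers and 26.1 to 52.9 in sham fibers, and 96.7 to 107 in DEN whole muscle and 52.6 to 115 in sham whole muscle, where the groups overlapped. That over 8 pericyte and smooth muscle markers was 315 to 1235 in DEN fibers and 377 to 581 in sham fibers. In whole muscle the smooth muscle sum was 294 to 354 normalised CPM after DEN and 509.7 to 572 after sham surgery. The part of these cells in the values of the members was not tested.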

How the data were processed

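RNA of 16 libraries was prepared with a directional polyA kit and sequenced as single-end reads. The authors used bcl2fastq 2.20.0.422 for base calls and cutadapt 2.1 to remove adapters, aligned reads to GRCm38 with TopHat2 2.1.0 and counted them per Ensembl gene and by strand with featureCounts 1.6.5, and the deposited counts are not normalised. The deposited RPM values are these counts divided by the library total, which was recomputed from the counts within 5.09e-11. The deposited RPKM values also divide by a gene length. The number of columns of other samples was 0.

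Counts were tested with edgeR 4.0.16 (R 4.3.3, TMM scaling, quasi-likelihood test, Benjamini-Hochberg adjustment over all genes) after filterByExpr with a minimum count of 10, in the libraries of the groups compared, and the difference of the DEN effects in all 16. Fits were checked on simulated counts in which few genes changed, as many up as down, with the same spread for every gene. That check does not bear on the choice of scaling or on single outlying libraries. Alternatives were total counts without TMM, DESeq2 1.42.0 (Wald test), no filter, all 16 libraries in 1 fit, a replicate block, and leaving out each library. Intervals of log2 fold changes are normal intervals at 95% confidence. Depth limits precision for members below about 1 normalised CPM, which rest on few counts.

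Values per library were given by rule for members that passed the filter, averaged at least 0.3 RPM in their highest group and had an adjusted p below 0.05 in a DEN comparison or in the difference, and up to 5 genes were named from each pathway list, by fold change, among genes with at least 1 RPM, besides Axin2, Lrp5, Lrp6 and Ctnnb1. Wnt6, Wnt10a and library 2 of Wnt16, and Mbp, Pmp22, Ngfr, Pax7, Itga7, Col1a1, Col3a1 and the perineurial genes, fall outside this rule and were chosen after their values were seen. Members and lists were chosen with earlier results of these data known. Coordinates are of GRCm38 (GENCODE M21). Of the listed Schwann cell markers, 1 is not reported here.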

Additional observations from a re-analysis of the deposited data

Results flagged for a closer look

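Of 76 sets of 4 libraries (19 members in 4 groups), 4 held a library far from the other 3, as measured by its gap to the nearest library over the whole range, and chance gives this in about 1 in 20 sets. Sfrp1 had 10.16 normalised CPM in DEN whole muscle library 2, against 1.11 to 1.728 in the other DEN whole muscle libraries. Wnt11 had 7.767 normalised CPM in DEN whole muscle library 1, against 6.959 to 7.018 in the others, and Fzd4 had 47.45 in DEN whole muscle library 3, against 52.62 to 53.03 in the others. Dkk3 had 28.17 normalised CPM in sham whole muscle library 1, against 8.418 to 11.25 in the other sham whole muscle libraries.

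The effect of DEN differed between fibers and whole muscle for 6 members, by the test of the difference itself in edgeR, of 27 tested, where 7.09% of all genes had a higher and 11.8% a lower difference. On the log2 scale, fibers minus whole muscle, the difference was -1.25 for Wnt4, -0.44 for Wnt9a, -0.83 for Fzd10 and -2.2 for Sfrp1, and it was 0.95 for Fzd7 and 0.46 for Fzd4. The calls of Wnt4, Wnt9a and Fzd7 were kept without any 1 library, and those of Fzd10, Sfrp1 and Fzd4 were each lost without at least 1. Muscle and preparation differ together in this comparison and cannot be told apart.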

How the results depend on the processing

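With total counts, 9 members were higher and 4 lower in DEN fibers, against 3 and 10 with TMM scaling, 10 were higher and 6 lower in DEN whole muscle, against 5 and 11, and the difference of the DEN effects was lower for 2 members, against 4. Among the 19 members with values per library, the log2 fold changes that were called under either scaling and changed sign with total counts were those of Wnt9a (0.4473), Wnt11 (0.3416), Fzd4 (0.1623), Fzd8 (0.0010) and Fzd9 (0.2693) in fibers, and of Fzd8 (0.0331), Fzd9 (0.1303) and Dkk2 (0.0150) in whole muscle.

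Leaving out 1 library at a time, 2 to 4 members were higher and 7 to 13 lower in DEN fibers, 4 to 6 higher and 10 to 12 lower in DEN whole muscle, and 1 to 3 higher and 2 to 4 lower in the difference. Between the preparations, 13 to 15 were higher and 3 to 4 lower in sham fibers, and 9 to 12 higher and 3 to 4 lower in DEN fibers. DESeq2, the absence of a filter and the fit of all 16 libraries moved no count of members in the DEN comparisons by over 1.5 times, although calls of Fzd3, Fzd4, Fzd10, Sfrp1, Dkk2 and Dkk3 changed under at least 1 of them. DESeq2 gave no adjusted p for Sfrp1 in whole muscle or for the difference of Sfrp1.

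The labels number the libraries 1 to 4 in each group but do not say what the numbers share. Libraries of the same number did not all deviate together, with correlations of 0.05 to 0.26 between DEN and sham fibers, -0.06 to 0.12 between DEN and sham whole muscle, -0.07 to 0.18 between the sham preparations and -0.03 to 0.20 between the DEN preparations, and not every library correlated best with its own number. In fibers, libraries of unlike number had correlations of -0.148 to 0.0735. Of the DEN fiber libraries, only library 4 correlated better with a sham fiber library of another number. The numbers were not used to pair libraries in the main fits. What libraries of the same number share in fibers, and whether EDL and TA share mice, was not tested. With a replicate block, 3 members were higher and 12 lower in DEN fibers, 4 higher and 11 lower in DEN whole muscle, and 2 higher and 3 lower in the difference. With it Fzd3 was not called in whole muscle (edgeR adjusted p = 0.0504), nor were the differences of Fzd4 (0.0789) and Sfrp1 (0.084), and the difference of Fzd6 was called (0.0188).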
